A study of Mus musculus with 24 samples.

Results

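The genes described here are 10 members of the CREB pathway: the transcription factors Creb1, Crem, Atf3 and Atf4, the coactivators Crtc1, Crtc2 and Crebbp, and the salt-inducible kinases Sik1, Sik2 and Sik3. They were taken by symbol, 10 of the 55177 genes to which the transcripts of the 24 tables belonged, with 96 annotated transcripts among them. RNA sequencing had been done on primary cortical neurons from mouse embryos at embryonic day 16.5. The DIV7 cultures (days in vitro, the age of the culture) were wild-type neurons given 0.1% DMSO, with 2 libraries at rest and 2 after 30 min in 50 mM KCl, which depolarizes the membrane. The DIV18 cultures carried a non-targeting CRISPR guide RNA (NT; 2 libraries at rest, 2 in KCl) or guides against Smarcc2, a subunit of the BAF chromatin-remodelling complex (KO). KO cultures had received an empty vector (3 at rest, 3 in KCl), wild-type Smarcc2 (KO with WT; 2 at rest, 3 in KCl), Smarcc2 S586E (3 at rest only) or Smarcc2 S586A (2 in KCl only). The series' text states that every resting culture had been silenced overnight with 1 µM tetrodotoxin and 100 µM D-AP5, and the protocol gives the same silencing before KCl. DIV7 RNA was poly(A)-selected and DIV18 RNA was total RNA depleted of ribosomal RNA, so culture age cannot be told apart from library preparation, nor from the guide or the DMSO, which the labels list at DIV7 only.

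Each embryo's cortex is called a biological replicate in the labels' protocol. Matched estimated counts per library summed to 24422254 to 29995001 in the DIV7 set and 14447367 to 23926652 in the DIV18 set. Smarcc2 itself matched the labels: 237 to 283 CPM (counts per library, after normalisation, on one shared total) in the 4 NT libraries, 47.1 to 64.1 in the 6 KO libraries with vector, 737 to 1089 with WT and 1164 to 1340 with S586E or S586A. The vector cultures therefore held a residue of Smarcc2 transcript, and the cultures with returned Smarcc2 held more than the NT cultures. Summed CPM of 9 neuronal markers lay between 3984 and 6120 in every library. The 5 astrocyte markers summed to 239 to 320 at DIV7 and to 118 to 724 at DIV18, and the 6 microglial markers to at most 8.88. In such bulk samples, fewer cells of a type and less RNA per cell cannot be told apart.

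CREB is a transcription factor that sits at cAMP response elements and is switched on when kinases driven by calcium or cAMP phosphorylate it. It then binds the acetyltransferase CBP, encoded by Crebbp, and, separately, the CRTC coactivators, which are held in the cytoplasm while the salt-inducible kinases phosphorylate them. In neurons this pathway links membrane depolarization to the early-response genes, and it is limited by products of its own targets, among them ICER, the short repressor made from an internal Crem promoter, and the kinase SIK1.

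On build GRCm38 (GENCODE M21), Creb1 lies on chromosome 1 from 64532645 to 64604548, Atf3 on chromosome 1 from 191170296 to 191218039 and Atf4 on chromosome 15 from 80255184 to 80257541. Crem lies on chromosome 18 from 3266048 to 3337748 and is read from the minus strand. The coactivator genes are Crtc1 (chromosome 8, 70382355 to 70439579), Crtc2 (chromosome 3, 90254163 to 90264125) and Crebbp (chromosome 16, 4081328 to 4213997). The kinase genes are Sik1 (chromosome 17, 31844250 to 31855804), Sik2 (chromosome 9, 50892801 to 51009073) and Sik3 (chromosome 9, 46012820 to 46224194). Crem overlaps Gm6225 and Sik2 overlaps Ppp2r1b, each on the opposite strand. Whether strand was used in assigning reads is not given in the sources used here, so reads of these pairs may not be separable.

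Compared per transcript length, Atf4 was the most abundant member in all 10 groups. In resting DIV7 neurons it stood at 310.3 and 340.5 TPM (transcript abundance scaled by length to a common total), followed by Crtc1 at 56.4 and 58.7. A middle set of Sik3, Creb1, Sik2, Crebbp and Sik1 lay between 27.1 and 38.9 TPM, and neighbours in that order overlapped between libraries. Crtc2 (22.1 and 22.9), Crem (18.6 and 18.8) and Atf3 (9.21 and 11.2) came last without overlap. After KCl the TPM order changed. Crem moved from rank 9 to rank 2, with 74.8 and 75.3, and Sik1 from rank 7 to rank 3, with 61.6 and 76.4. The KCl values of Crem and Sik1 overlapped. Part of the Sik1 TPM in KCl came from the 301-base transcript Sik1-202, described below. In resting NT neurons at DIV18, Atf4 (42.2 and 43.0 TPM), Sik3 (28.5 and 29.7) and Crtc1 (24.4 and 25.8) led, while Sik1 (5.69 and 6.28), Crtc2 (4.73 in both) and Atf3 (1.10 and 2.68) were lowest. Crem (11.3 and 12.4) and Creb1 (10.3 and 12.5) did not differ beyond their spread there.

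The first comparison asked which members changed within 30 min of depolarization at DIV7. Crem rose the most, Atf3, Atf4 and Sik1 followed, Sik3 and Sik2 rose less, and Crtc2 and Crtc1 fell. Creb1 and Crebbp did not pass the test. In all, 6 of 10 members were called higher, 2 lower and 2 not, by edgeR's quasi-likelihood F test at a Benjamini-Hochberg adjusted p under 0.05 over 19822 genes. Of all genes tested, 17.0% were called in either direction, 7.34% higher and 9.67% lower. The members' median log2 fold change was 0.35 and that of all genes 0.00.

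Crem, whose products activate or repress CREB target genes depending on the transcript, stood at 9.78 and 9.60 CPM at rest and at 35.8 and 35.2 in KCl. Both KCl libraries lay far above both resting libraries, a log2 fold change of 1.87 (SE 0.0784, adjusted p = 2.83e-05), or 3.66-fold. Atf3, an inducible factor of the ATF family known from stressed and injured neurons, went from 7.16 and 6.69 CPM to 12.8 and 11.8. Its log2 fold change was 0.83 (SE 0.111, adjusted p = 0.00413). With offsets for the average transcript length of each gene it was 0.57 with an adjusted p of 0.0578. Atf4, the factor at the centre of the integrated stress response, was at 294 and 268 CPM at rest and at 416 and 439 in KCl. That is a log2 fold change of 0.60 (SE 0.0553, adjusted p = 0.00108), and the 2 groups did not overlap. Creb1, the founding activator, held at 72.5 and 76.6 CPM at rest and 71.6 and 78.7 in KCl. The groups overlapped, and its log2 fold change of 0.01 has a 95% interval of -0.14 to 0.16.

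Among the kinases, Sik1 moved from 72.8 and 65.8 CPM to 103 in both KCl libraries, a log2 fold change of 0.57 (SE 0.0606, adjusted p = 0.00180). SIK1 is the inducible member of its family. With the length offsets its log2 value was 1.33 (adjusted p = 0.00126). The offsets depend on how reads are split among transcripts, and the summed protein-coding transcripts of Sik1 had a log2 value of 0.54. Sik3 was at 79.5 and 71.7 CPM at rest and at 106 and 92.1 in KCl (log2 0.39, SE 0.0831, adjusted p = 0.0205). Sik2 was at 47.3 and 48.9 at rest and at 62.5 and 57.3 in KCl (log2 0.32, SE 0.0647, adjusted p = 0.0180). All 3 kinases were higher in both KCl libraries than in either resting library.

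Both CRTC members fell at the level of the whole gene. Crtc2 went from 17.7 and 17.0 CPM to 12.7 and 12.4, a log2 fold change of -0.47 (SE 0.0868, adjusted p = 0.0128). Crtc1, the CRTC known from forebrain neurons, went from 145 and 139 CPM to 122 and 121 (log2 -0.23, SE 0.0461, adjusted p = 0.0182). With the length offsets the log2 values were -0.83 for Crtc2 and -0.37 for Crtc1, and both stayed called. Crebbp stood at 124 and 127 CPM at rest and at 136 and 143 in KCl, without overlap, but its log2 fold change of 0.15 (interval 0.04 to 0.26) did not pass the test, with an adjusted p of 0.0781. Groups without overlap are common in 2 against 2 libraries: 9 members and 59.3% of all genes showed it.

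**Figure D1:**
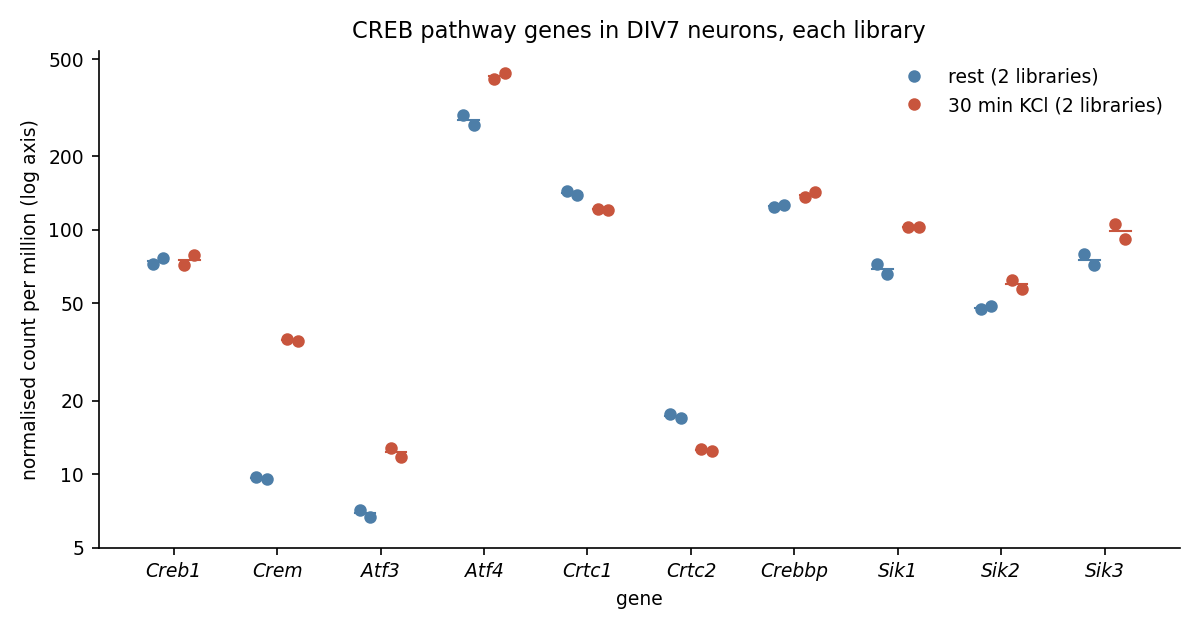
Normalised CPM (log axis) of the 10 genes in each DIV7 library, at rest and after 30 min in KCl; short lines mark the means of the 2 libraries. Crem shows the widest gap, from 9.60 and 9.78 to 35.2 and 35.8, and Creb1 is the only gene whose libraries overlap.

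The calls of Crem, Atf3, Atf4 and Sik1 held when any 1 of the 4 libraries was left out. The other 4 calls did not. Sik2 lost its call without resting replicate 1, resting replicate 2 or KCl replicate 1 (log2 0.29, 0.34 and 0.26; adjusted p 0.100, 0.0623 and 0.0840). Sik3 lost it without resting replicate 2 or KCl replicate 1 (0.32 and 0.28; 0.0975 and 0.0559). Crtc1 lost it without resting replicate 1, KCl replicate 1 or KCl replicate 2 (-0.20, -0.23 and -0.22; 0.104, 0.0670 and 0.0660), and Crtc2 without resting replicate 1 or 2 (-0.44 and -0.50; 0.0836 and 0.0519). Directions were the same throughout.

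Crem's transcripts were split by where they begin. In the annotation, 7 of its 39 transcripts start in the last 25% of the gene, between 3281078 and 3281769. All 7 are coding, with lengths of 436 to 1015 bases, and they are called short forms here; their start is where the internal promoter of ICER is known to lie. At DIV7 the short forms rose from 5.05 and 5.28 CPM to 23.1 and 23.8, a log2 fold change of 2.18 (SE 0.0959, adjusted p = 3.92e-05). The 32 other forms rose from 4.72 and 4.32 CPM to 12.7 and 11.4, a log2 fold change of 1.41 (SE 0.126, adjusted p = 0.000978). Both classes rose, 4.54-fold and 2.66-fold. Short forms made up 51.7% and 55.0% of Crem's estimated counts at rest and 64.5% and 67.7% in KCl, without overlap. Per length, in TPM, the shares were 75.1% and 77.7% at rest and 85.2% and 87.0% in KCl. The difference between the log2 values of the classes was not tested, and all these forms share exons, so their split rests on the authors' assignment of shared reads.

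Within the short class, Crem-218 went from 35.8 and 19.1 estimated counts to 123.8 and 188.2, and Crem-229 from 6.34 and 27.9 to 198.4 and 155.1. Crem-206 went from 69.3 and 43.7 to 114.1 and 91.9, and Crem-219 from 24.0 and 17.3 to 114.5 and 92.8. Crem-235 had 0 counts in both resting libraries and 47.3 and 28.6 in KCl. The remaining short forms, Crem-202 (0 and 15.5 to 63.1 and 82.0) and Crem-224 (8.67 and 7.70 to 22.3 and 15.4), had the same order. None of the 7 passed the test over 53122 transcripts, and the share of all transcripts without overlap was not computed.

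**Figure D2:**
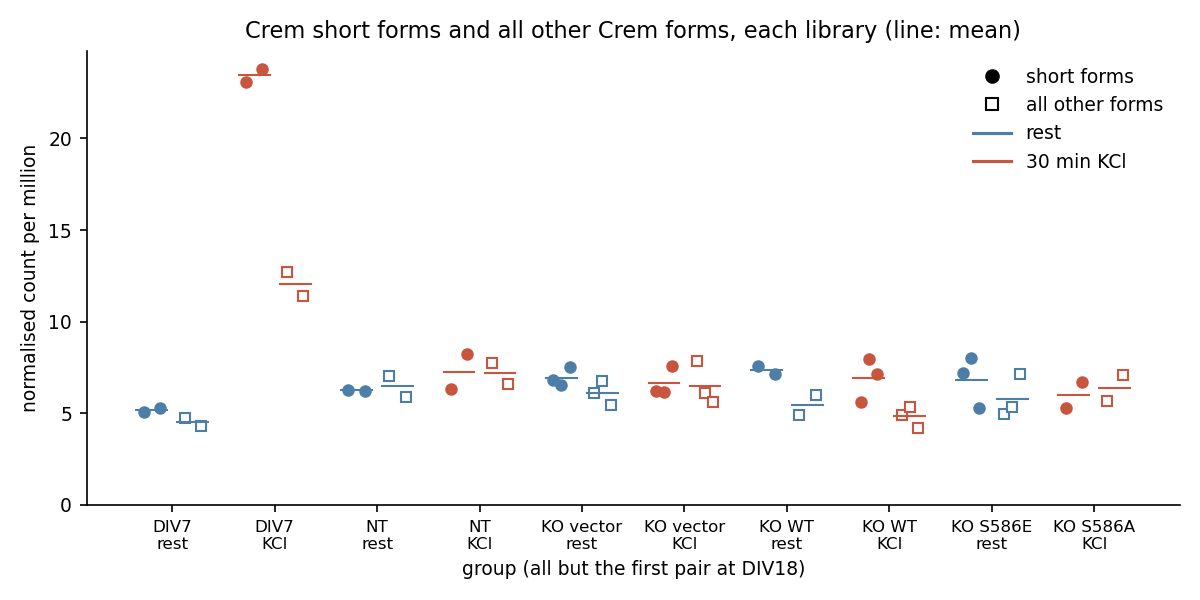
Normalised CPM of the Crem short forms (filled circles) and of all other Crem forms (open squares) in each of the 24 libraries, with group means as lines. Only the DIV7 KCl libraries stand apart, at 23.1 and 23.8 for short forms and 12.7 and 11.4 for the others; the 20 DIV18 libraries lie between 4.19 and 8.22 for both.

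The counts of all members were also divided by transcript type. This split too rests on the authors' assignment of shared reads, and the difference between the 2 sums of a gene was not tested. For each gene, protein-coding transcripts and all other transcripts (retained introns, decay targets and processed transcripts) were summed apart; this split was chosen after the gene values were seen. At DIV7, the coding transcripts of Crem (log2 1.94), Atf3 (0.94), Atf4 (0.57), Sik1 (0.54) and Sik3 (0.42) were called higher by edgeR and none was called lower. The background was 7.88% of all coding sums called higher and 5.22% lower. Among non-coding sums, Sik1 (3.61) and Atf4 (1.80) were called higher, and Creb1 (-1.84), Crtc1 (-1.42) and Crtc2 (-0.74) lower, against 3.37% and 14.5% of all such sums. Over all genes the median log2 fold change was 0.04 for coding and -0.15 for other transcripts.

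For Crtc1 and Crtc2, the sums that were called lower were those of the non-coding transcripts. Crtc1 coding transcripts went from 126 and 122 CPM to 117 and 116 (log2 -0.10, SE 0.0463, adjusted p = 0.219). Its other transcripts, of which the 10265-base Crtc1-204 with retained introns held most, went from 17.3 and 16.0 CPM to 6.61 and 5.83 (log2 -1.42, adjusted p = 0.00246). For Crtc2, coding CPM was 2.48 and 2.77 at rest and 3.04 and 4.80 in KCl, with a log2 fold change of 0.58 (SE 0.274, adjusted p = 0.215) whose sign is opposite to that of the whole gene. The other Crtc2 transcripts held most of its reads and went from 15.1 and 14.2 CPM to 9.78 and 7.70 (adjusted p = 0.0245). The split of Crtc2 can differ widely within a group: in resting NT neurons at DIV18, coding CPM was 1.43 and 6.51 and other CPM 6.66 and 4.15. Creb1, level as a whole, had 3.58 and 3.54 CPM of non-coding transcripts at rest and 0.800 and 1.20 in KCl (adjusted p = 0.0118), a small share beside 68.4 to 78.0 CPM of coding transcripts.

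Atf4 and Sik1 gained non-coding transcripts on top of coding ones. Atf4-203, a single-exon form with a retained intron, went from 253.1 and 166.2 estimated counts to 844.9 and 683.9 (log2 1.82, SE 0.184, adjusted p = 0.0461). With the main coding form Atf4-201 (log2 0.59, adjusted p = 0.0488), it was 1 of 2 member transcripts called among 54 tested, where 1.36% of all transcripts were called. Neither call held when any 1 library was left out. Sik1-202, a 301-base form built from 3 stretches of the Sik1 exons, was at 0 in both resting libraries and at 68.0 and 35.5 counts in KCl. It did not pass the test (adjusted p = 0.0650). Sik1-203 and Sik1-204, which retain introns, went from 6.65 and 6.66 to 48.4 and 32.8 counts and from 0 and 3.70 to 25.4 and 13.6. Since TPM divides by length, short forms weigh more in it: Sik1-202 alone gave 0, 0, 34.2 and 19.7 of the gene's 29.7, 27.1, 76.4 and 61.6 TPM in the 2 resting and 2 KCl libraries.

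**Figure D3:**
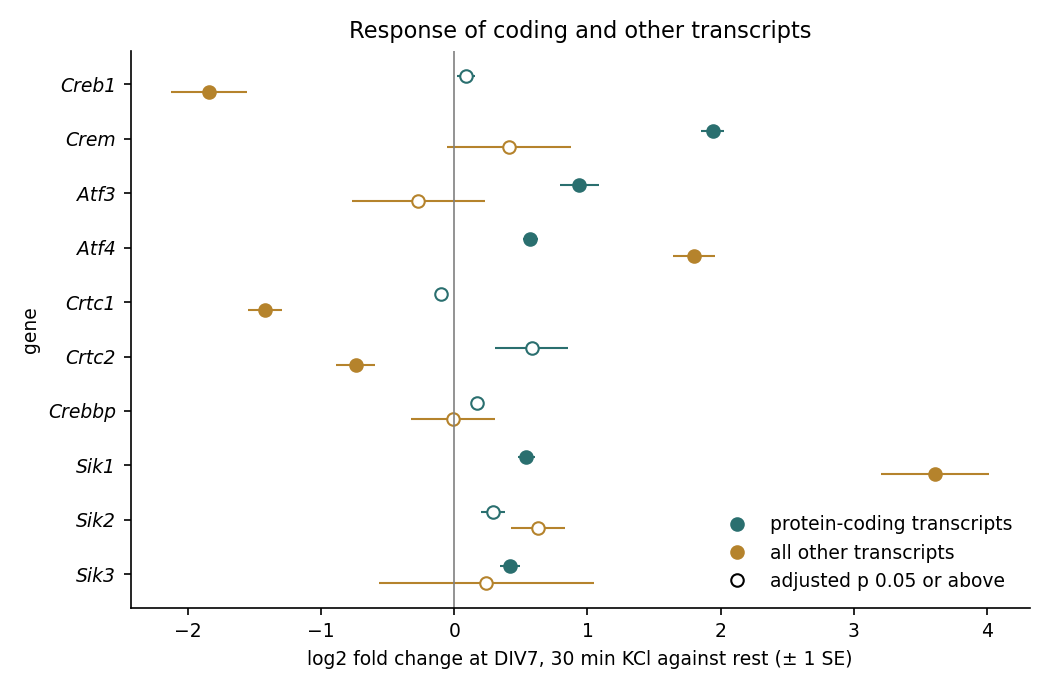
Log2 fold change at DIV7 (KCl against rest, bars 1 SE) of the summed coding and the summed other transcripts of each gene; filled points passed the test. The 2 sums differ in sign for Creb1 (0.09 and -1.84) and Crtc2 (0.58 and -0.74), and Sik1 has the largest rise among other transcripts (3.61).

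Promoter sequence was read from the RefSeq table on build GRCm38.p6, 250 bases before to 50 after the 1 start annotated there for each gene. For Atf3 this start lies by that of Atf3-201 (191183340), and the farther start of Atf3-203 (191218039) was not read. The table held 7 of the 10 members (not Crem, Sik1 or Crtc2). None of the 7 held the full palindromic element TGACGTCA, which 1.79% of 32851 promoters hold. The half-site TGACG, on either strand, was in 4 of 7, against 20.8% of all promoters. These 4 are shown from 150 bases before to 20 after the start. Capitals mark half-sites, and a site may overlap another motif.
Atf3 (chr1:191183314-191183483, minus strand): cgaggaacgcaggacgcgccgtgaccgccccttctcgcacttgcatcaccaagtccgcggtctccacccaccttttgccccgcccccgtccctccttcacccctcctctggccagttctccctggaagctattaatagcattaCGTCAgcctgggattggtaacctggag
Atf4 (chr15:80255034-80255203, plus strand): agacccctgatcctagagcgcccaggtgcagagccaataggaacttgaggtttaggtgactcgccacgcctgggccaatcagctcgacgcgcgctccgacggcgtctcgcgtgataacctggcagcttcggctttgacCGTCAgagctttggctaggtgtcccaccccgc
Sik2 (chr9:51009054-51009223, minus strand): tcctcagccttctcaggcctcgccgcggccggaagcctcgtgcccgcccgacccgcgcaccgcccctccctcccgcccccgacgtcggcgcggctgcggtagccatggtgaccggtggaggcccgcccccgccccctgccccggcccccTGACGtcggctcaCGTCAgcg
Sik3 (chr9:46012670-46012839, plus strand): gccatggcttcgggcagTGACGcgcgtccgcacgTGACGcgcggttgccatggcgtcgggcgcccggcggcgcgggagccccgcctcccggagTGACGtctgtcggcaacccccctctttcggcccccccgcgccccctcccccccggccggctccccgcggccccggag
Counting from the annotated start, the half-site begins at -7 in Atf3 and at -12 in Atf4, which has another at 40 beyond the printed stretch. Sik2 has half-sites at -1 and 12 and Sik3 at -133, -116 and -57. The promoters of Creb1, Crebbp and Crtc1 held no half-site. Half-sites were not tested against the KCl response, and Crem, which rose the most, has no promoter here. A match is a description of letters, and binding was not measured.

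Around the members, 5 lists of pathway genes were counted at DIV7, where 7.34% of all genes were called higher and 9.67% lower. Of 22 textbook CREB target genes, 15 were called higher, none lower and 7 not, with a median log2 fold change of 1.94. Fosb (8.01), Fos (7.23), Nr4a1 (5.77) and Npas4 (5.40), all early-response transcription factors, had the largest log2 values. Of 15 other CREB and ATF family factors, 3 were called higher and 3 lower. Nfil3, a bZIP repressor, rose by 1.52 on the log2 scale and Cebpb by 0.55, while Crebl2 fell by 0.66 and Atf7 by 0.45. Of 12 other coactivators and SIK-CRTC regulators, 4 were called higher and 1 lower. The deacetylase Hdac9 (0.61), the CBP paralogue Ep300 (0.24) and the 14-3-3 gene Ywhaz (0.19) rose, and Crtc3, the remaining CRTC gene, fell by 0.59. Of 23 kinases and cAMP enzymes upstream of CREB, 5 were called higher and 1 lower, among them the adenylyl cyclase Adcy8 (0.97), the phosphodiesterase Pde4d (0.22), and the CREB kinase genes Rps6ka3 (0.34) and Rps6ka4 (-0.43). Of 20 genes of the ATF4 and stress response, 3 were called higher and 4 lower: Ppp1r15a, a phosphatase subunit that ends the stress response, rose by 1.01, while Trib3 fell by 2.31, Chac1 by 0.44 and Ddit3 by 0.36. Sesn2 (0.34) and Hspa5 (0.28) also rose, Xbp1 was at -0.28 and called lower, 13 were not called, and the median of the list was 0.01.

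At DIV18 the same comparison was made in NT, KO with vector and KO with WT neurons. No member passed the test in any of the 3. Atf4 was the one member higher in every KCl library than in every resting library of its construct in all 3. The share of all genes with that ordering in all 3 was not computed. edgeR's quasi-likelihood test called 0 of 10 members each time, and so did DESeq2. The background was low as well, with 0.00955% of 20940 genes called in NT, 0.0716% with vector and 0.0430% with WT. At an unadjusted p under 0.05 the counts were 1 (Crtc2), 2 (Atf4 and Sik1) and 1 (Atf4) of 10.

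Crem stood at 13.3 and 12.1 CPM in resting NT neurons and at 14.1 and 14.8 in KCl. These do not overlap, but the log2 fold change was 0.18 (SE 0.136), with an interval of -0.10 to 0.47. With vector, resting Crem was 12.9, 13.3 and 13.0 CPM and KCl Crem 14.1, 12.3 and 13.2 (log2 0.01, interval -0.22 to 0.25). With WT it was 12.5 and 13.1 at rest and 10.5, 13.3 and 11.4 in KCl (log2 -0.13, interval -0.39 to 0.13). The upper ends of these intervals lie below the DIV7 value of 1.87. Neither class of Crem transcripts passed the test: log2 values of the short forms were 0.22, -0.06 and -0.09, those of the other forms 0.15, 0.10 and -0.17, in the same order. None of the 61 member transcripts tested was called in NT, with vector or with WT, where 0.00167%, 0.0150% and 0.00334% of all transcripts were, and 1, 4 and 1 of them had an unadjusted p under 0.05. The short share of Crem counts ranged from 42.7% to 63.1% over the 20 libraries.

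Atf4 rose in no single test but showed the same ordering in each. It was at 77.1 and 76.7 CPM in resting NT neurons and 89.0 and 81.1 in KCl (log2 0.15, SE 0.113, adjusted p = 1.00). With vector the values were 87.1, 82.4 and 79.2 at rest and 99.6, 101 and 108 in KCl (log2 0.31, SE 0.0922, adjusted p = 0.275). With WT they were 84.0 and 82.0 at rest and 96.9, 87.4 and 116 in KCl (log2 0.27, SE 0.103, adjusted p = 0.926). Groups without overlap, in either direction and in each construct taken alone, occurred in 33.5%, 15.7% and 21.7% of all genes. The share in all 3 together was not computed, so the shared ordering of Atf4 has no background to set it against. A mean of the 3 responses, added after these values were seen, drew on 7 resting and 8 KCl libraries and called 0.449% of genes. Atf4 had a mean log2 fold change of 0.24 (SE 0.0594, interval 0.12 to 0.37, adjusted p = 0.0989). It passed with DESeq2 (0.25, adjusted p = 0.0249), without the low-count filter (0.24, adjusted p = 0.0136), and without KO with WT KCl replicate 2 (0.27, adjusted p = 0.0415). It did not pass with median-of-ratios size factors, length offsets, the replicate block or only the groups compared. Leaving out any other single library of these groups did not make it pass either.

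In that mean, 4 of 10 members had an unadjusted p under 0.05 and none an adjusted p under 0.05 by edgeR. Crtc2 was at 0.25 (interval 0.07 to 0.42, adjusted p = 0.389), Sik1 at 0.18 (0.03 to 0.34, 0.538) and Sik2 at 0.11 (0.00 to 0.22, 0.613). Crem was at 0.02 with an interval of -0.13 to 0.17, and Sik3 at 0.02 with -0.07 to 0.12. Atf3, at 1.50 to 5.62 CPM the scarcest member at DIV18, had the widest interval, -0.39 to 0.55. Of the textbook CREB targets, 8 of 22 were called higher in the mean: Npas4 (5.65), Fos (3.90), Fosb (3.79), Egr1 (2.15), Arc (1.94), Nr4a1 (1.81), Junb (1.70) and Dusp1 (1.20). None of the 15 family factors, 12 coactivators and regulators, 23 upstream enzymes or 20 stress genes was called.

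KCl libraries at DIV18 differed from one another in Fos, which marks depolarized neurons. Fos stood at 113 and 38.5 CPM in NT, 101, 111 and 51.2 with vector and 197, 106 and 32.7 with WT, and at 598 and 618 at DIV7. Resting libraries held 2.75 to 8.34. Leaving out any 1 library still gave 0 members called in each of the 3 responses.

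**Figure D4:**
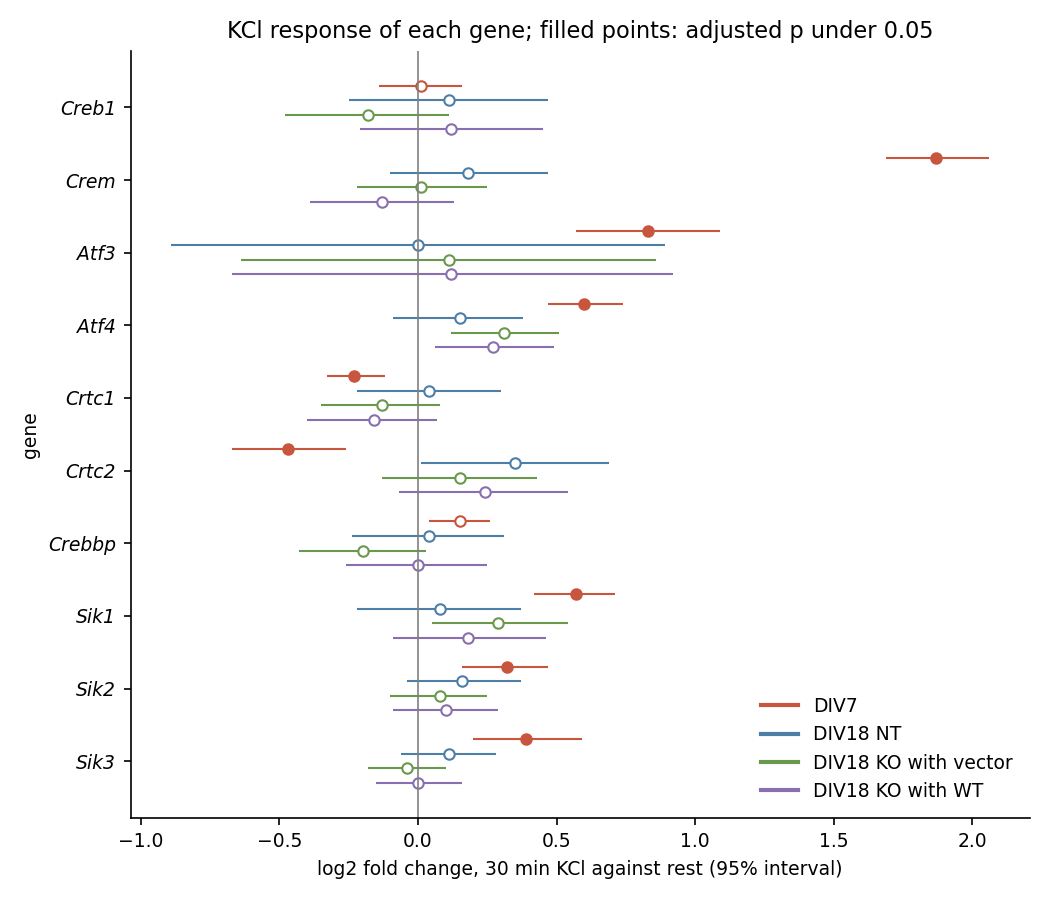
Log2 fold change of each gene (KCl against rest) with its 95% interval in the 4 responses; filled points passed the test at an adjusted p under 0.05, open points did not. Filled points occur at DIV7 only, where Crem is farthest from 0 at 1.87; the DIV18 values lie between -0.20 and 0.35.

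The DIV7 and NT responses were then compared directly in a fit of those 8 libraries. Crem's response was larger at DIV7 by 1.68 on the log2 scale (SE 0.147, interval 1.35 to 2.02, adjusted p = 0.000708 by edgeR). It was the only member called, where 2.34% of 21072 genes were called and 0.603% in this direction. In all, 7 members had an unadjusted p under 0.05. Atf3 differed by 0.82, with a wide interval of 0.07 to 1.57 and an adjusted p of 0.272. After Crem, the lowest adjusted p-values were those of Crtc2 (-0.83, adjusted p = 0.0794), Sik1 (0.48, 0.0737) and Atf4 (0.45, 0.0660). With no filter on low counts these 3 passed as well (adjusted p 0.0182, 0.0181 and 0.00396), DESeq2 added Atf4 (0.48, 0.0128), length offsets added Sik1 (1.33, 0.00929), and leaving out NT resting replicate 2 added Crtc2 (-1.03, 0.0494). Culture age, RNA selection, the CRISPR guide and the DMSO listed for DIV7 alone differ together between these cultures and cannot be told apart.

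Whether Smarcc2 affects the members' responses was tested as differences of response at DIV18. No member was called for vector minus NT or for WT minus vector, none had an unadjusted p under 0.05, DESeq2 called none, and 0.00% of all genes were called. For Crem the differences were -0.17 (interval -0.54 to 0.20) and -0.14 (-0.49 to 0.21). For Sik1 they were 0.22 (-0.17 to 0.60) and -0.11 (-0.48 to 0.26), and for Atf4 0.17 (-0.14 to 0.47) and -0.04 (-0.33 to 0.25). The intervals of Atf3, -1.05 to 1.27 and -1.08 to 1.11, were the widest.

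Levels were also compared between constructs in the same state. None of the 10 members was called in any of 6 contrasts by edgeR. For KO with vector against NT, 5.90% of all genes were called at rest and 2.67% in KCl; for WT against vector 0.0143% and 0.00955%; for S586E against WT at rest and S586A against WT in KCl 0.00%. Counts at an unadjusted p under 0.05 were 0, 3, 0, 0, 3 and 3, in that order.

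Sik3 came closest. In KCl it stood at 141 and 148 CPM in NT neurons and at 115, 128 and 117 with vector, without overlap (35.8% of all genes showed this), a log2 difference of -0.27 (SE 0.0750, interval -0.43 to -0.11, adjusted p = 0.0624). DESeq2 called it, at -0.26 with an adjusted p of 0.0244. At rest the values were 134 in both NT libraries and 125, 127 and 118 with vector (log2 -0.12, adjusted p = 0.388). Returning WT Smarcc2 left Sik3 at 124, 122 and 112 CPM in KCl, a difference from vector of -0.01 (interval -0.15 to 0.13). In KCl, Atf4 was 0.28 higher with vector than in NT (adjusted p = 0.170) and Crebbp 0.26 lower (-0.26, adjusted p = 0.290). Astrocyte markers summed to 356 to 724 CPM in the NT libraries in KCl and to 190 to 263 with vector. The 7 oligodendrocyte-lineage markers summed to 129 to 211 CPM in NT and 112 to 132 with vector in KCl. At rest they summed to 195 to 205 in NT and 133 to 151 with vector. Mbp was the largest part of these sums, at 121 and 89.8 in resting NT and 124, 129 and 125 with vector. Single markers could differ more: Pdgfra stood at 19.7 and 30.3 CPM in resting NT and 0.916, 1.01 and 0.0637 with vector. In KCl, Pdgfra stood at 1.40 and 13.5 in NT and 0.875, 0.534 and 0.782 with vector. The part of these cells in the differences was not tested.

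The serine-586 variants were each sequenced in one state. Resting Atf3 stood at 1.54, 2.69 and 1.57 CPM with S586E, the glutamate variant, and at 3.56 and 4.04 with WT, without overlap (31.4% of all genes showed this). Its log2 difference was -0.96 (SE 0.389, interval -1.78 to -0.14), with an unadjusted p of 0.0235 and an adjusted p of 0.304. Sik3 (0.17, adjusted p = 0.352) and Crebbp (0.26, adjusted p = 0.388) were the other 2 members with an unadjusted p under 0.05. In KCl, Sik1 was at 22.1 and 19.8 CPM with S586A, the alanine variant, below all WT libraries at 26.8, 24.8 and 25.8 (25.7% of all genes did not overlap). That difference of -0.30 (SE 0.132, interval -0.58 to -0.02) had an adjusted p of 0.561. Atf4 (-0.23, adjusted p = 0.561) and Crtc1 (0.26, adjusted p = 0.556) completed the 3. Smarcc2 transcript itself was 1164 to 1276 CPM with S586E against 756 and 816 with WT at rest, and 1303 and 1340 with S586A against 737 to 1089 with WT in KCl; its part in these values was not tested.

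**Figure D5:**
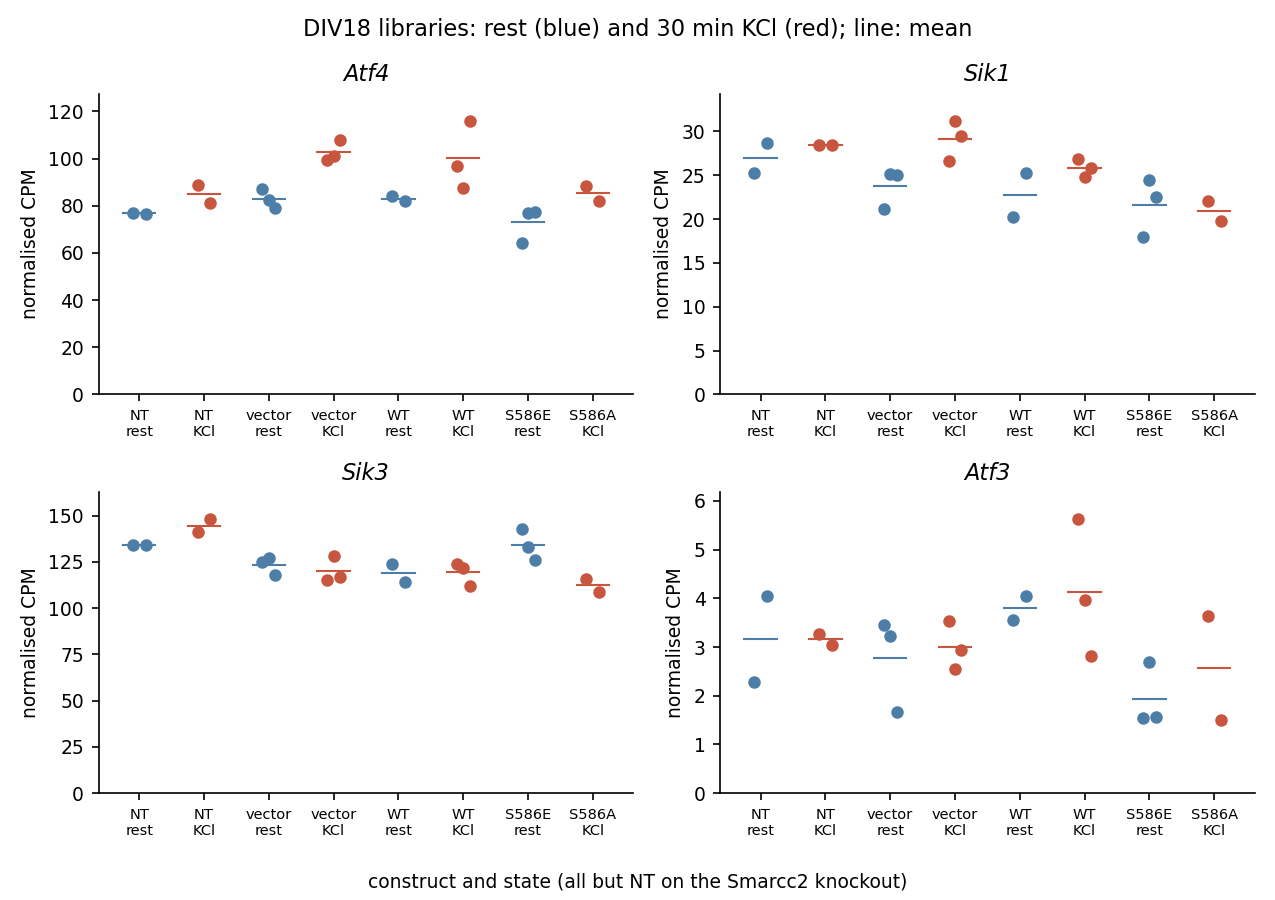
Normalised CPM of Atf4, Sik1, Sik3 and Atf3 in each of the 20 DIV18 libraries by construct and state, with group means as lines. Atf4 is higher in KCl than at rest in NT, vector and WT cultures, the group mean of Sik3 is highest in NT cultures in KCl (libraries at 141 and 148), and Atf3 is low with a wide spread (1.50 to 5.62).

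Across the 20 DIV18 libraries the members did not move as 1 block. The highest Pearson correlation of log2(CPM + 0.5) between members was 0.84, for Sik3 and Crebbp, and the lowest -0.69, for Crtc1 and Atf4. Genes with clone-like or pseudogene symbols (such as Gm numbers, Rik or -ps) were dropped before likeness was ranked. Among the 13136 genes compared, those most like Crem were Gbp5 (0.764), Abcd2 (0.719) and Rnf128 (0.656). Those most like Sik1 were Ago3 (0.909), Rgs8 (0.866) and Insr (0.859), and those most like Atf3 were Abi3bp (0.893), Iqcb1 (0.851) and Heca (0.840). The libraries share constructs, states and depth, so these are descriptions of likeness over 20 points.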

How the data were processed

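The tables hold, per the file headers, 1 row per transcript with the estimated count and TPM that the authors deposited; FastQC, cutadapt and kallisto are named in the submitters' processing notes, and versions, options and genome build are not given in the sources used here. The estimated counts deposited by the authors need not be whole. The TPM values deposited by the authors (scaled by length to a fixed sum) were used only to order levels. Of 142552 transcripts, 141429 (99.2%) matched GENCODE M21; the 1123 others held at most 0.467% of a library's counts and were left out. The effective length deposited per the file headers served only for length offsets.

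Estimated counts were summed per gene, rounded, and tested with edgeR 4.0.16 in R 4.3.3 (quasi-likelihood F test, two-sided, TMM, filterByExpr, Benjamini-Hochberg; called under 0.05). The 4 DIV7 libraries were fitted alone (19822 genes, 2 residual degrees of freedom, biological coefficient of variation 6.44%), the 20 DIV18 libraries together in 8 groups (20940 genes, 12, 14.6%), and DIV7 with NT for the difference of responses (21072 genes, 4, 10.0%). All 10 members passed the filter. CPM values are TMM-normalised; standard errors come from the F statistic, and 95% intervals use its degrees of freedom. Alternatives were DESeq2 1.42.0, median-of-ratios size factors, no filter, length offsets, a replicate block, fits of only the compared groups, and leaving out each library. Replicate numbers are shared between rest and KCl, and the main fits did not take them as pairs. Over all genes, the deviations of same-numbered libraries correlated at -0.05 to 0.24. That cannot decide pairing: noise of single genes enters it, and comparisons of 2 with 2 libraries give the same value for both numbers. On simulated counts, the fit recovered 89.9% of changes of 1 on the log2 scale at DIV7 (19822 genes) with 9.09% false calls, and 70.5% in NT at DIV18 (20940 genes) with 6.56%. The simulation used the fit's own spread and planted changes only in genes above a floor of mean counts. In the NT data themselves, Fos was not called, at 7.52 and 7.25 CPM at rest and 113 and 38.5 in KCl. The recovered shares therefore do not carry over to the members at DIV18.

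The members and the lists were chosen with earlier results of these data known. Named are all members, at most 4 called genes per list and contrast by size, the 3 genes most like Crem, Sik1 and Atf3 (mean CPM of at least 1), Smarcc2 and the CRE motifs. The stress-response list at DIV7 is an exception, with all its called genes named. Fos levels, the genes called in the mean DIV18 response and single transcripts were named after their values were seen.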

Additional observations from a re-analysis of the deposited data

Results flagged for a closer look

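The KCl response of Crem differed between DIV7 and NT neurons at DIV18 by a test of the difference itself: it was larger at DIV7 by 1.68 on the log2 scale (SE 0.147, adjusted p = 0.000708 by edgeR's quasi-likelihood test). Crem was called higher at DIV7 (1.87) and was not called in NT at DIV18 (0.18, adjusted p = 1.00). Poly(A) selection and DMSO at DIV7, and ribosomal depletion and the CRISPR guide at DIV18, cannot be told apart from culture age.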

How the results depend on the processing

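At DIV7, 8 members were called. Protein-coding transcripts alone gave 5 and turned Crtc2 to 0.58 (adjusted p = 0.215), and leaving out 1 library gave 5 to 7; with 1 library left in a group, that library is assumed to vary like the others. The 2 member transcripts called became 0 in each of those 4 fits. Crem stayed called, between 1.86 and 2.05 over 10 alternatives, and its short and other forms between 2.15 and 2.21 and between 1.33 and 1.49 over 8. For the difference between DIV7 and NT responses, where 1 member was called, DESeq2 and length offsets each gave 2 and no filter gave 4; leaving out 1 library gave 1 to 2. Crem's own difference ran from 1.60 to 1.89 over 13 alternatives. For KO with vector against NT in KCl, where no member was called, DESeq2 called 1 (Sik3). The mean DIV18 response had no member called; DESeq2 and no filter each gave 1 (Atf4), and leaving out 1 library gave 0 to 1. The other counts of members called at DIV18 stayed at 0 under every alternative run, and the cause of these shifts was not tested. Of 1800 member values under alternatives, 1775 stayed on the same side of the threshold (values not called could change sign), 13 lost the call, 11 gained it and 1 reversed.

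Whether the replicate numbers pair libraries could not be decided. At DIV7, in replicates 1 and 2, Gad2 stood at 42.1 and 57.8 CPM at rest and at 45.9 and 71.9 in KCl. Vgf was lower in replicate 2 in both states (293 and 233, then 491 and 385). Gfap changed order (93.3 and 68.2, then 55.4 and 59.5). How many genes keep their order was not counted. With the replicate block, 9 members were called at DIV7 (Crebbp passed as well, at 0.15 with an adjusted p of 0.00894), 1 for DIV7 minus NT and 0 in every DIV18 contrast. The block left the Crem short and other forms at 2.18 and 1.41.

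Counts over all genes moved more. At DIV7, 3371 became 2217 with DESeq2, 5854 with the block and 1459 to 2630 without 1 library. In NT at DIV18, 2 became 15 with DESeq2 and 192 with no filter; with vector, 15 became 52 and 513; with WT, 9 became 32 and 196. For vector against NT at rest, 1236 became 2016 with no filter and 100 to 1031 without 1 library, and in KCl 560 became 933 with DESeq2, 1438 with no filter and 37 to 241 without 1 library. For DIV7 minus NT, 494 became 1326 with no filter, 260 with length offsets, 279 with the block and 108 to 452 without 1 library. For S586E against WT, 0 became 319 with DESeq2 and 782 with no filter, and for S586A against WT, 0 became 19 and 225. For WT against vector, 3 became 178 with DESeq2 and 605 with no filter at rest, and 2 became 6 and 126 in KCl. For the differences of response, vector minus NT and WT minus vector, 0 became 7 and 1 with DESeq2 and 448 and 116 with no filter. Member transcripts at DIV18, 0 of 61 called in each response, had 1, 4 and 1 with an unadjusted p under 0.05. Atf3 had low counts at DIV18, 18.5 to 130.0 estimated counts of its main transcript, Atf3-201, per library.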
